A study of Arabidopsis thaliana with 6 samples.

Results

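The ATL genes of Arabidopsis thaliana (Arabidopsis Tóxicos en Levadura) encode a family of RING-H2 ubiquitin ligases. Members were taken as the rows of the deposited gene table whose symbol is ATL followed by a number and at most 1 further letter, which gave 75 of 27655 genes. Their read counts were compared between 14-day-old whole seedlings of the wild-type accession Col-0 that were held under distilled water for 1 h and seedlings of the same age left in air for 1 h. Both groups grew on MS-agar in long days, carry no mutation or transgene per the labels, and consist of 3 RNA-seq libraries each, labelled as biological replicates. No label says how many seedlings went into a library or whether the cultures were separate, so the p-values speak only of the spread among these 6 samples, which may be technical.

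A RING finger is a fold of cysteine and histidine residues around zinc ions that docks a ubiquitin-conjugating enzyme (E2), and the ligase then passes ubiquitin on to a protein bound elsewhere on it. ATL proteins are short, carry a hydrophobic segment before the RING finger that anchors them in a membrane, and are mostly encoded without introns. Several are known as rapid responders to fungal elicitors and as regulators of the balance of carbon and nitrogen, and targets are known for only a few.

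The members were checked against that description in the coding sequences of the TAIR10.1 annotation. A RING-H2 pattern of 8 metal-binding residues was present in 74 of the 75 predicted proteins, the exception being ATL62 (DNF, a repressor of flowering in short days). A hydrophobic stretch lay before the RING in 73, and 64 had a single coding exon. The predicted proteins were 132 to 472 residues long, with a median of 261. All 16 members that later tested as higher under water had a single coding exon, as did 16 of the 18 that tested as lower.

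The coding runs below span the RING finger from its first to its last metal-binding residue, on the coding strand, 5′ to 3′, from the RefSeq TAIR10.1 genome. They are shown because they place the strongest risers and the strongest faller beside each other. Capitals mark the codons of the 8 cysteine or histidine residues. ATL31 (chr5:9684488-9684613, plus strand), ATL6 (chr3:1477758-1477883, plus strand), ATL2 (chr3:5693234-5693359, plus strand) and ATL16 (chr5:17452201-17452326, plus strand) had the largest rises. ATL7 (chr4:6329178-6329303, plus strand) had the largest fall, and ATL59 (chr4:6336912-6337037, plus strand) is its neighbour on the chromosome.
ATL31: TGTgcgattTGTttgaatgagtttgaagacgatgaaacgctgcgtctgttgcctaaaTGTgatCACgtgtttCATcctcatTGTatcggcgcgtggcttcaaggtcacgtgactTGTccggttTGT
ATL6: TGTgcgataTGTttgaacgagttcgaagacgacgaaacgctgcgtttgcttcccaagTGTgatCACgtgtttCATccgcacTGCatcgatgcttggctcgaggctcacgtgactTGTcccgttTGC
ATL2: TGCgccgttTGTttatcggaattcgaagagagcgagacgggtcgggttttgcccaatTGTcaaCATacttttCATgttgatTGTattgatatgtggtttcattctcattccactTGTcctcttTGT
ATL16: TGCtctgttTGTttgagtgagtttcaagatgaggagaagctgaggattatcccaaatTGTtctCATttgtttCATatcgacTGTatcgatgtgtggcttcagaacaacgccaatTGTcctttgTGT
ATL7: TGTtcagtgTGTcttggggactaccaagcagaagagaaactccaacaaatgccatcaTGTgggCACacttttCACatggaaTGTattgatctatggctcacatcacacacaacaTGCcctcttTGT
ATL59: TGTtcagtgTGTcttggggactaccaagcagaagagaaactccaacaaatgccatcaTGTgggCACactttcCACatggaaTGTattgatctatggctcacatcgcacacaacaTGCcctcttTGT
All 6 runs are 126 bases long with the metal-binding codons at the same places. ATL31 and ATL6 differ at 21 of the 126 bases, whereas ATL2 differs from ATL6 at 50 and from ATL31 at 46. ATL7 and ATL59 differ at only 2, so reads from this stretch of the pair could be assigned to either gene.

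The libraries held 20041244 to 29673924 counts, and ATL genes took 0.0404 to 0.0430% of them in air and 0.0518 to 0.0548% under water. Markers of the seedling's parts were present in every library. The 17 tested root markers included 1 gene that rose and 1 that fell, and their summed level was 1653 to 1949 CPM (counts per 1e6 counts of the library, TMM-scaled) in air and 860.6 to 1237 CPM under water, with none at 0. Nearly all of that sum was BGLU23, at 1742 CPM in air and 989.1 CPM under water on average, and without it, a choice made after its values were seen, the sums were 66.7 to 97.1 CPM in air and 80.02 to 87.4 CPM under water. The median log2 fold change of the root markers was 0.04. The 14 tested shoot markers included 8 that fell and none that rose, with sums of 33123 to 35715 CPM in air and 25216 to 28755 CPM under water. Root markers also varied within groups: 14 of 17 were higher in air library 2 than in the other air libraries, and 12 of 17 were lower in air library 3. In bulk RNA, fewer cells of a type and less RNA per cell cannot be told apart, and the part of these shifts in the ATL values was not tested beyond a fit with the root markers as a covariate, which called 16 members higher and 18 lower (all genes: 27.8% higher, 24.7% lower, 52.5% in all).

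Most of the tested members were called higher or lower after 1 h under water, as were most of all tested genes. Of the 75 members, 51 had enough counts to be tested with edgeR's quasi-likelihood test, 16 were higher under water, 18 were lower and 17 did not pass an adjusted p of 0.05. The 34 called members are 66.67% of those tested, while 55.0% of all 19495 tested genes were called. By direction, 31.37% of the tested members rose against a background of 28.8%, and 35.29% fell against 26.1%. With upper quartile scaling, which lowered the median of all genes by 0.12 on the log2 scale, the background became 22.9% higher and 34.9% lower (57.9% called in all) and the members' counts became 14 and 21.

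Changes of 2-fold or more made up a larger share of the tested ATL genes than of all tested genes. At least 2-fold rises were called for 12 members, 23.5% of those tested against 9.69% of all genes, and at least 2-fold falls for 6 members, 11.8% against 5.59%. These 18 members are 35.3% of those tested, against 15.3% of all genes. At least 4-fold rises were called for 4 members, when 3.46% of all genes rose that far, and a 4-fold fall for 1, when 0.800% of all genes fell that far. The median absolute log2 fold change was 0.75 over the tested members and 0.38 over all tested genes, while the signed median was -0.15 for the members and 0.01 for all genes. Air and submerged CPM did not overlap for 38 of the 51 members (74.51%, against 62.1% of all genes), with 16 above (32.2% of all genes) and 22 below (30.0% of all genes). ATL7, the only 4-fold fall and 1 of the 6 falls of at least 2-fold, passed the filter on low counts only through its level in air. Its direction was thus set by that filter.

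**Figure D1:**
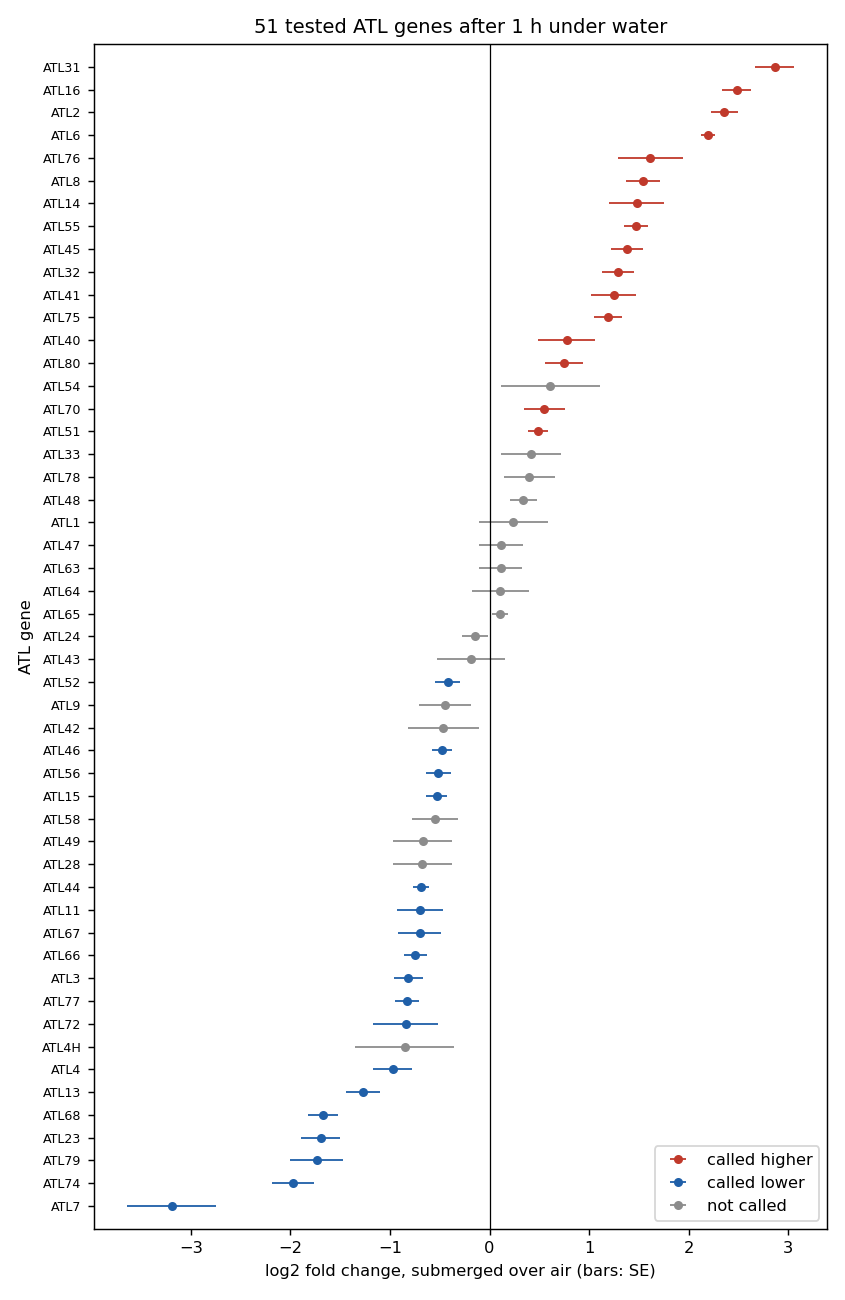
Log2 fold change under water over air for the 51 tested ATL genes, with bars of 1 standard error from edgeR (3 libraries per group) and colour by call. The values run from 2.86 for ATL31 to -3.19 for ATL7, with 16 members called higher and 18 called lower.

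The members that rose at least 4-fold were ATL31, ATL16, ATL2 and ATL6, in that order. ATL31 and ATL6 are a pair of close relatives that act together in the response to the ratio of carbon to nitrogen and in defence, and that direct 14-3-3 proteins to degradation. ATL31 (AT5G27420, also CNI1) stood at 1.38, 1.74 and 1.57 CPM in the 3 air libraries and at 9.52, 11.2 and 13.5 CPM in the 3 submerged ones. Every submerged library was far above every air library. The rise was 7.28-fold (log2 2.86 ± 0.20 SE, adjusted p = 6.27e-08), and it lay between 2.73 and 2.99 on the log2 scale when any 1 library was left out. ATL6 (AT3G05200) was already well expressed, at 22.9, 24.6 and 27.3 CPM in air, and reached 109.7, 117.6 and 113.9 CPM under water. The groups were again wide apart, and the libraries within each lay close together. The rise of ATL6 was 4.57-fold (log2 2.19 ± 0.07 SE, adjusted p = 8.68e-11).

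The estimated fold changes of ATL2 and ATL16 lay between those of ATL6 and ATL31, and these differences were not tested. ATL2 (AT3G16720), known for its rapid induction by chitin and other elicitors, was at 9.75, 10.01 and 15.1 CPM in air and at 53.0, 62.9 and 62.1 CPM under water. Air library 3 was the highest of the air group and still lay far below the submerged libraries. ATL2 rose 5.13-fold (log2 2.36 ± 0.14 SE, adjusted p = 1.37e-08). ATL16 (AT5G43420) was at 2.69, 3.39 and 2.51 CPM in air and at 15.4, 16.5 and 16.2 CPM under water. The submerged libraries differed little among themselves, and none came near the air range. ATL16 rose 5.59-fold (log2 2.48 ± 0.14 SE, adjusted p = 1.29e-08).

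Other risers have described roles in cell death, sugar starvation, and iron or phosphate supply. ATL55 (AT5G10380, RING1), a ligase of programmed cell death triggered by the fungal toxin fumonisin, was at 7.83, 6.68 and 7.13 CPM in air and 22.5, 19.01 and 18.3 CPM under water. The groups did not overlap, and ATL55 rose 2.77-fold (log2 1.47 ± 0.12 SE, adjusted p = 3.26e-07). ATL8 (AT1G76410), known to respond to sugar starvation, was at 4.49, 3.39 and 5.46 CPM in air and 12.4, 14.5 and 11.9 CPM under water. It too was separate between the groups, and rose 2.91-fold (log2 1.54 ± 0.17 SE, adjusted p = 5.97e-06). ATL14 (AT4G30370), listed by RefSeq as IDF1 after the degradation of the root iron transporter IRT1, was weakly expressed, at 1.995, 1.03 and 1.77 CPM in air and 5.37, 4.22 and 3.82 CPM under water. Even the lowest submerged library was above the highest air library, and ATL14 rose 2.78-fold (log2 1.48 ± 0.28 SE, adjusted p = 5.62e-04). ATL80 (AT1G20823), linked to phosphate mobilisation and cold, was at 4.18, 3.71 and 5.46 CPM in air and 6.95, 8.85 and 6.66 CPM under water. The groups were close but separate, and the rise was smaller (log2 0.75 ± 0.19 SE, adjusted p = 0.00472).

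The other members that rose at least 2-fold have less well described roles. ATL45 (AT4G35480, RHA3B) was at 3.91, 5.92 and 4.47 CPM in air and 11.5, 13.3 and 12.4 CPM under water, a 2.61-fold rise (log2 1.38 ± 0.16 SE, adjusted p = 1.01e-05). ATL32 (AT4G40070) was at 3.91, 4.28 and 4.82 CPM in air and 10.6, 9.03 and 12.3 CPM under water, a 2.45-fold rise (log2 1.29 ± 0.16 SE, adjusted p = 1.86e-05). ATL41 (AT2G42360) was at 1.84, 2.40 and 2.36 CPM in air and 5.03, 4.36 and 6.29 CPM under water, a 2.38-fold rise (log2 1.25 ± 0.23 SE, adjusted p = 4.33e-04). In each of these genes the lowest submerged library was above the highest air library. ATL75 (AT1G49200) was at 5.91, 9.12 and 8.16 CPM in air and 16.9, 17.7 and 18.1 CPM under water, a 2.28-fold rise (log2 1.19 ± 0.14 SE, adjusted p = 1.34e-05). ATL76 (AT1G49210) was at 0.998, 1.74 and 2.61 CPM in air and 5.40, 6.90 and 3.82 CPM under water, a 3.07-fold rise (log2 1.62 ± 0.33 SE, adjusted p = 9.60e-04). ATL75 and ATL76 share 84.51% of their protein residues, so their separate values are uncertain where reads could be split between them. ATL41, ATL45 and ATL75 also overlap genes on the opposite strand, whose reads may be counted in their values. ATL40, ATL70 and ATL51 rose by less, with log2 fold changes of 0.77, 0.55 and 0.49, and ATL40 and ATL70 lost the call when some single libraries were left out.

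**Figure D2:**
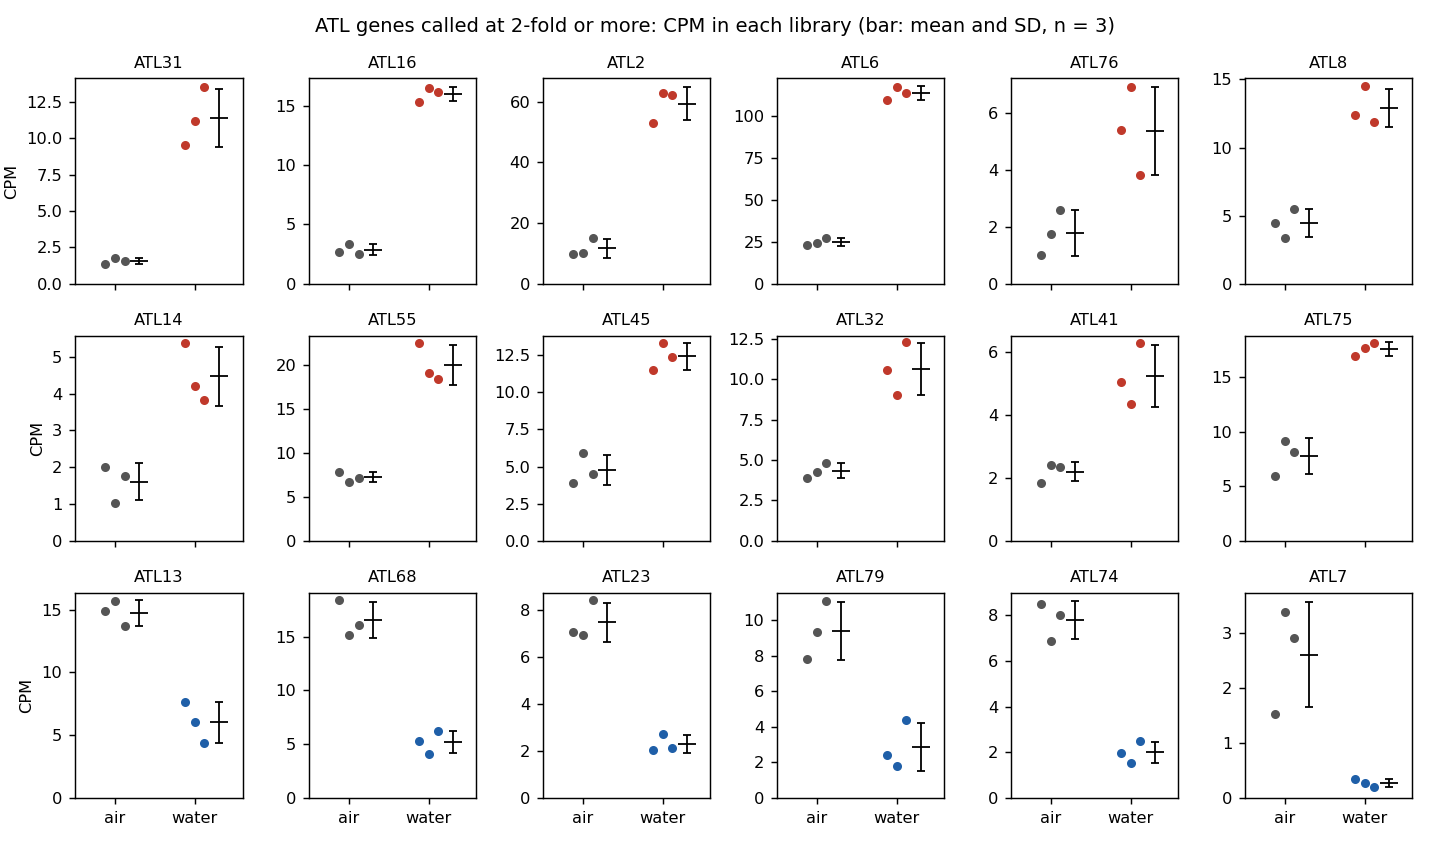
TMM-scaled CPM in each of the 3 air and 3 submerged libraries for the 18 ATL genes called with at least a 2-fold change, 1 panel per gene with its own axis from 0, with points for libraries and bars for the mean and SD. The submerged points of ATL31 (9.52 to 13.5 CPM) and ATL6 (109.7 to 117.6 CPM) lie above all air points, and those of ATL7 (0.206 to 0.337 CPM) lie below them.

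The members that fell at least 2-fold were ATL7, ATL74, ATL79, ATL23, ATL68 and ATL13. ATL7 (AT4G10150) was at 1.54, 3.39 and 2.90 CPM in air and at 0.337, 0.272 and 0.206 CPM under water. It was a weakly expressed gene in air that came close to the detection limit under water, and the groups were far apart. ATL7 was 9.15-fold lower (log2 -3.19 ± 0.45 SE, adjusted p = 4.89e-05). As it passed the filter on low counts only through its level in air, that p-value is no separate support for its direction. ATL74 (AT5G01880), named DAFL2 after its likeness to a ligase of anther opening, was at 8.52, 6.86 and 8.01 CPM in air and 1.96, 1.54 and 2.48 CPM under water. The groups did not come near each other, and ATL74 was 3.93-fold lower (log2 -1.98 ± 0.21 SE, adjusted p = 4.11e-06).

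ATL79 (AT5G47610) was at 7.79, 9.31 and 11.1 CPM in air and 2.40, 1.77 and 4.39 CPM under water, 3.34-fold lower (log2 -1.74 ± 0.27 SE, adjusted p = 1.25e-04). ATL23 (AT5G42200), often counted among the genes that low oxygen induces, was at 7.06, 6.91 and 8.41 CPM in air and 2.06, 2.72 and 2.12 CPM under water. Each submerged library of both genes was below each air library, and ATL23 was 3.25-fold lower (adjusted p = 8.31e-06). ATL68 (AT3G61550) was at 18.4, 15.2 and 16.1 CPM in air and 5.33, 4.13 and 6.19 CPM under water, 3.19-fold lower (log2 -1.67 ± 0.15 SE, adjusted p = 8.51e-07). ATL13 (AT4G30400) was at 14.9, 15.7 and 13.7 CPM in air and 7.63, 6.08 and 4.39 CPM under water, 2.41-fold lower (log2 -1.27 ± 0.17 SE, adjusted p = 3.17e-05). The air and submerged libraries of ATL68 and ATL13 were separate as well.

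The remaining 12 falls were smaller, from a log2 fold change of -0.42 for ATL52 to -0.97 for ATL4. They included ATL44 (AT2G17450, RHA3A), at 32.2, 30.6 and 34.7 CPM in air and 18.7, 20.6 and 21.3 CPM under water. All submerged libraries of ATL44 were below the air libraries (log2 -0.69 ± 0.08 SE, adjusted p = 1.25e-05). ATL15 (AT1G22500), linked to sugar responses, was at 24.2, 24.8 and 20.4 CPM in air and 16.1, 14.2 and 17.9 CPM under water. Its groups were separate by a narrow margin (log2 -0.53 ± 0.11 SE, adjusted p = 0.00104). ATL72 (DAFL1), ATL11, ATL67 and ATL52 lost the call when some single libraries were left out. In contrast, 14 of the 16 risers and 14 of the 18 fallers, among them every member changed at least 2-fold, kept it in each such fit. For ATL7, which passed the filter only through its level in air, the kept call is no separate support for its direction.

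Several members with known roles did not pass the test. ATL9 (AT2G35000), which responds to chitin and acts in resistance to powdery mildew, was at 2.38, 3.90 and 2.85 CPM in air and 2.23, 2.09 and 2.37 CPM under water. The submerged libraries were just below the air libraries, with an adjusted p of 0.172 (log2 -0.44 ± 0.26 SE). ATL43 (AT5G05810), needed for a full abscisic acid response, was at 1.07, 2.02 and 2.46 CPM in air and 1.55, 1.68 and 1.599 CPM under water, and its groups overlapped (adjusted p = 0.670). ATL54 (AT1G72220), of secondary wall formation in xylem, was at 0.767, 0.658 and 0.197 CPM in air and 1.01, 0.726 and 0.774 CPM under water. Its ranges overlapped as well (adjusted p = 0.318). ATL78 (AT1G49230), linked to cold and drought tolerance, was at 5.03, 7.85 and 6.59 CPM in air and 11.4, 8.89 and 4.95 CPM under water (adjusted p = 0.212). Submerged library 3 was the only submerged library of ATL78 inside the air range or below it, and without it the gene was called higher (adjusted p = 0.0122). ATL78 is 1 of 6 members not called that gained a call when some single library was left out.

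The other 24 members had too few counts to test. No count was recorded in any library for 12 of them, and 12 had between 2 and 51 counts in all 6 libraries together. ATL39 had no count in air and 14 under water, at least 2.22-fold higher when air is set to a floor of 6 counts over the group (3 read pairs, counting error only). With no filter on low counts ATL39 was called higher by edgeR (adjusted p = 0.0356). It was not called in the authors' deposited table (false discovery rate 0.0828). ATL73, the ligase of anther opening to which ATL72 and ATL74 are likened, and ATL59, the neighbour of ATL7, each had 6 counts in air and none under water, which is within that floor. ATL10 had 22 counts in air and 5 under water.

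Levels between members were compared as deposited TPM, a unit of transcript abundance that takes gene length into account. In air ATL44 was the highest member, at 36.5 ± 1.79 TPM (SD, n = 3), and its range was separate from that of the next, ATL66, at 27.1 ± 2.88 TPM. ATL66, ATL15, ATL68, ATL56, ATL6 and ATL46 followed between 27.1 and 21.5 TPM, each overlapping the next in this order. Under water the order was led by ATL6 at 98.8 ± 3.64 TPM and ATL2 at 61.8 ± 5.18 TPM, each with a range separate from the next. ATL6 thus moved from rank 6 to rank 1 and ATL2 from rank 16 to rank 2, while ATL44 went from rank 1 to rank 5 at 22.7 ± 1.16 TPM. ATL75, ATL55, ATL8 and ATL45 were at ranks 3, 4, 6 and 7 under water after ranks 13, 19, 25 and 24 in air.

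The summed TPM of the 75 members was 471.7 ± 17.9 in air, with libraries from 454.3 to 490.2, and 597.4 ± 20.5 under water, with libraries from 582.9 to 620.9. ATL6 held 4.58% of that sum in air and 16.5% under water, ATL2 2.56% and 10.3%, and ATL44 7.75% and 3.8%. Without ATL6 and ATL2, which were singled out after their values were seen, the sum was 438.0 ± 17.5 TPM in air and 436.9 ± 14.4 TPM under water, and the library ranges overlapped.

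**Figure D3:**
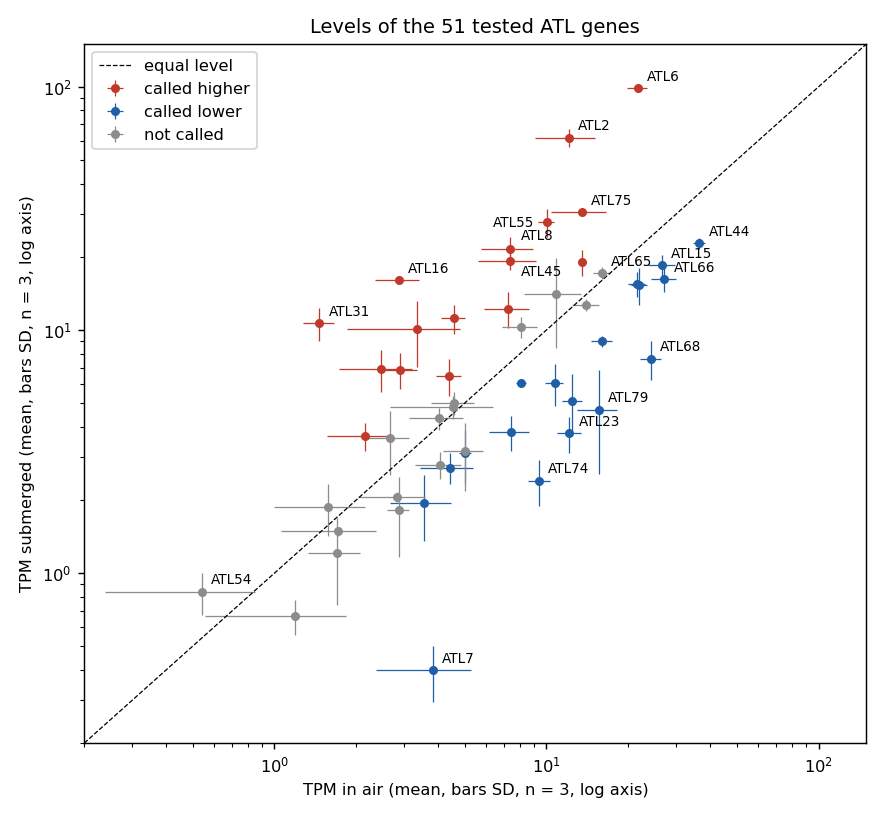
Mean TPM under water against mean TPM in air for the 51 tested ATL genes on log axes, with bars of 1 SD (n = 3), colour by call and a dashed line of equal level. ATL6 (98.8 TPM) and ATL2 (61.8 TPM) stand above the rest under water, and ATL7 lies farthest below the line.

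Close relatives within the family did not always move together. Matching each predicted protein with its most similar member gave 23 mutual pairs, of which 13 had both genes tested. Both genes were called in 9 of these pairs, in the same direction in 6 and in opposite directions in 3, and in the other 4 only 1 of the genes was called. The differences within pairs were not tested. The pairs that rose together were ATL6 with ATL31, ATL75 with ATL76, ATL8 with ATL80, and ATL40 with ATL41. The pairs that fell together were ATL67 with ATL68 and ATL11 with ATL15.

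The pairs that split were ATL44 with ATL45, ATL51 with ATL52, and ATL14 with ATL56. ATL44 and ATL45, known as RHA3A and RHA3B, share 67.8% of their residues, and 34 of the 126 bases of their RING runs differ. In air ATL44 was the more abundant by far, at 36.5 TPM against 7.37 TPM for ATL45, whereas under water they were at 22.7 and 19.2 TPM. ATL16 rose while its closest relative ATL1 did not pass the test (log2 0.24 ± 0.34 SE). ATL13, ATL46 and ATL4 fell while ATL49, ATL47 and ATL65 did not pass it. ATL49 moved the same way as ATL13 (log2 -0.67 ± 0.30 SE, adjusted p = 0.0753), with every submerged library below air. It was called lower with upper quartile scaling and with voom, so this pair is not shown to differ. ATL4 and ATL65 share only 25.55% of their residues.

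**Figure D4:**
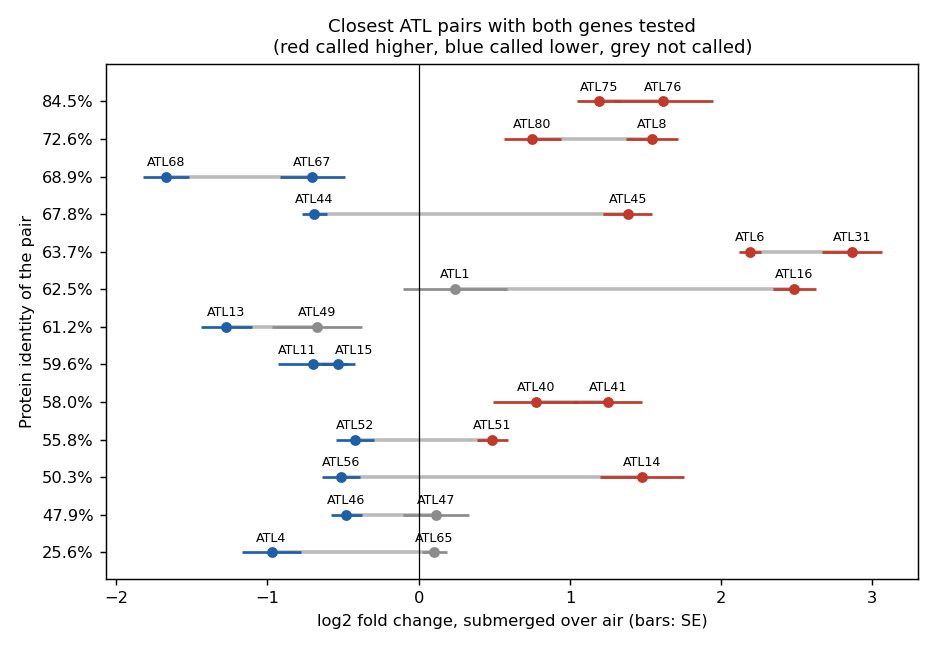
Log2 fold change under water over air, with bars of 1 standard error, for both genes of the 13 mutual closest pairs in which both were tested, ordered by protein identity. ATL6 (2.19) and ATL31 (2.86) both lie to the right, and ATL44 (-0.69) and ATL45 (1.38) lie on opposite sides of 0.

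Some relatives are also neighbours on a chromosome. ATL75, ATL76, ATL10 and ATL78 lie in 1 run on chromosome 1 with at most 1 protein-coding gene between each and the next. The first pair of that run rose, ATL10 had too few counts to test and ATL78 was not called. Among protein-coding genes, ATL40 and ATL41 are adjacent and both rose, and ATL7 and ATL59 are adjacent. Overlap with another annotated gene, most often on the opposite strand, was found for 16 of the 75 members. They include ATL41, ATL45 and ATL75 among the risers and ATL15, ATL56, ATL74 and ATL77 among the fallers. Genes on the opposite strand cover 1170 of the 1245 bases of ATL41, 871 of the 942 of ATL75 and 496 of the 1064 of ATL45. Among the members not called, ATL78 is overlapped over all 984 of its bases by a gene on the opposite strand. Reads of partners on the opposite strand could not be told apart because the strand setting of the counting is not known here. Among the called members, ATL74 and ATL56 have a partner on the same strand, over 416 of 1358 and 210 of 1604 bases. Strand would not separate the reads there.

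The 250 bases before the annotated start of the members that rose at least 4-fold are shown because these genes moved together. The windows are ATL31 (chr5:9683738-9683987, plus strand), ATL16 (chr5:17451238-17451487, plus strand), ATL2 (chr3:5692357-5692606, plus strand) and ATL6 (chr3:1476710-1476959, plus strand), in RefSeq TAIR10.1, and capitals mark matches to any motif searched.
ATL31: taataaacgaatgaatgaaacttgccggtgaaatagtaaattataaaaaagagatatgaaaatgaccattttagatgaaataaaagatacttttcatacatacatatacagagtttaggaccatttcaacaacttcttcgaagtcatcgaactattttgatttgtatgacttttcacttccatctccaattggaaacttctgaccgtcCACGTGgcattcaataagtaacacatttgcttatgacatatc
ATL16: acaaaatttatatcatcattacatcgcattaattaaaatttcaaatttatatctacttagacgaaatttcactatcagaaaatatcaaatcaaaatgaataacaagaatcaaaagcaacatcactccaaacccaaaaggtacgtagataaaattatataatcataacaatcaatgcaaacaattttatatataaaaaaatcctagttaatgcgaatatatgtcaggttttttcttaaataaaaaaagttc
ATL2: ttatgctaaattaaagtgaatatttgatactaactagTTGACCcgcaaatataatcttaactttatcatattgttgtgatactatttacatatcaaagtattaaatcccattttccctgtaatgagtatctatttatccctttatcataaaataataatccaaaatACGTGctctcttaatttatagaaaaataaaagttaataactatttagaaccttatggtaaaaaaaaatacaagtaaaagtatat
ATL6: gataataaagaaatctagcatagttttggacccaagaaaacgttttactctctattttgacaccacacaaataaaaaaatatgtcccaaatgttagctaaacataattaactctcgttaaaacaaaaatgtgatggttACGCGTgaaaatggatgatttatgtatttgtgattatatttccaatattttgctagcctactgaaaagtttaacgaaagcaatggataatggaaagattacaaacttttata
The promoters were searched on both strands, from 250 bases before to 50 after the start, for motifs bound by stress-related factors. They were the W-box of WRKY factors (TTGACC or TTGACT), the CGCG core (ACGCG or CGCGT), the core of the abscisic acid element (ACGTG), the G-box (CACGTG, which contains ACGTG), the GCC-box (GCCGCC), the rapid stress element (CGCGTT, which contains CGCGT) and the evening element by name. No motif is held by all 4 of these windows: ATL31 has a G-box with the ACGTG core inside it, ATL2 has a W-box and an ACGTG core, ATL6 has an overlapping ACGCG and CGCGT, and ATL16 has none of them. A W-box was found in 7 of the 16 risers (43.8%), 6 of the 18 fallers (33.3%), 7 of the 17 members not called (41.2%) and 32.4% of 27443 promoters of all genes. Among all genes called higher or lower the W-box shares were 36.9% and 28.8%. The ACGTG core was found in 6 risers (37.5%), 4 fallers (22.2%), 1 member not called (5.88%) and 26.7% of all promoters. A G-box was found in 2 risers (12.5%), 1 faller (5.56%) and 7.68% of all promoters. The evening element was found in no riser, 2 fallers (11.1%), 2 members not called (11.8%) and 5.65% of all promoters. The CGCG core was found in 2 of the risers (12.5%), ATL6 and ATL55, in none of the fallers, and in 8.7% of all promoters. Its share was 15% among all genes called higher and 7.19% among all called lower, so the share of the ATL risers was below that of all risers. No called member had a GCC-box or the rapid stress element. A match is a description of the letters in these windows, not of binding.

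Genes that work with ATL ligases were counted in lists chosen for their roles. These lists and those of the next paragraph were chosen with earlier results of these data known. Of 36 tested genes for ubiquitin-activating and ubiquitin-conjugating enzymes, which supply the ubiquitin that a RING ligase transfers, 16 rose and 8 fell, 66.67% called against 55.0% of all genes. By direction, 28.8% of all genes rose and 26.1% fell. Most of the enzyme genes listed were well expressed. With a filter of at least 5 CPM in 3 libraries, 64.4% of all genes were called, 33.0% higher and 31.4% lower. The lists were not counted with that filter. Of 11 tested ubiquitin genes 5 rose and 1 fell (54.55% called), the fall being that of UBQ3 (log2 -0.67 ± 0.05 SE). Of 24 other RING-H2 genes 4 rose and 9 fell (54.17% called). The called shares of the ubiquitin genes and of these RING-H2 genes were thus near that of all genes. The RING-H2 genes called included RDUF1 (log2 2.35 ± 0.11 SE) and RDUF2 (log2 1.96 ± 0.08 SE), ligases linked to drought and abscisic acid. XERICO (log2 -1.40 ± 0.08 SE), which promotes abscisic acid accumulation, was among those that fell. The U-box ligases are another family with elicitor-responsive members. They had 24 rises and 8 falls among 44 tested genes (72.73% called). Their median log2 fold change was 0.52, beside -0.15 for the ATL genes.

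Genes linked to ATL31 and ATL6, among them targets, kinases and syntaxins, were also counted. Of 17 tested, 11 rose and 3 fell (82.35% called, against 55.0% of all genes and 64.4% of all genes with the filter of 5 CPM). Their median log2 fold change was 0.30 against 0.01 for all genes. WRKY33, a transcription factor of defence, rose from 16.9 to 208.8 CPM on average (log2 3.63 ± 0.12 SE). SYP121, a syntaxin of the plasma membrane, rose from 17.3 to 83.8 CPM (log2 2.27 ± 0.07 SE). Among the 14-3-3 genes, whose proteins ATL31 marks for degradation, GRF1, GRF2, GRF3, GRF4, GRF6, GRF7, GRF8 and GRF10 rose and GRF9 and GRF11 fell. Genes of chitin perception and signalling, the setting in which ATL2 is best known, had 14 rises and no fall among 15 tested genes (93.33% called). Their median log2 fold change was 1.105. CERK1, the chitin receptor kinase, was the one not called (adjusted p = 0.0607). WRKY33 stands in both lists.

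The deposited table of the study's own comparison was set beside these calls. By the authors' deposited table, 15 members were higher and 19 lower at a false discovery rate under 0.05, where 46.5% of all genes with a value passed. Of the members, 33 were called in the same direction in the authors' deposited table and in the edgeR test. ATL70 was called by edgeR alone and ATL28 in the authors' deposited table alone (log2 -0.69, false discovery rate 0.0498).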

How the data were processed

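Whole-seedling RNA-seq of 3 air and 3 submerged libraries was used. The authors deposited read counts, TPM and RPKM per gene, a CPM-like signal, per the file headers, and a separate table of their own fold changes and false discovery rates. The deposited signal columns were not used. The genome was TAIR10 per the submitters' processing notes, while aligner, counter and strand setting were not given in the sources used here. Lengths implied by the deposited RPKM equalled TAIR10.1 exon unions for 61 of 63 members with counts (ATL3 and ATL41 differed), and sequences and coordinates are from RefSeq TAIR10.1.

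Counts were scaled by TMM and tested with edgeR 4.0.16 in R 4.3.3 (quasi-likelihood F test, filterByExpr with a minimum count of 10 and a minimum total of 15). Fold changes are submerged over air, p-values were adjusted by Benjamini-Hochberg over 19495 genes, and the standard error is the log2 fold change over the root of F. The code was tested on simulated data. Alternatives were other scalings, filters, DESeq2 1.42.0, limma 3.58.1 (voom), halved counts, a root marker covariate, a fit with replicate block, and omission of single libraries. Members named in full were those called with a 2-fold or larger change and a mean of 1 CPM or more in either group, and those with a described role. Members and lists were chosen with earlier results of these data known. RING patterns were searched by the metal-binding residues (ligands) and their spacing. A proline 2 residues before the third ligand was found in 67 of the 75 members and a tryptophan 4 after the sixth in 74. Neither residue was required for a match, and these places depart from the wording first planned.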

Additional observations from a re-analysis of the deposited data

How the results depend on the processing

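Every called member kept its direction under all alternatives in which it could be tested. For ATL7 this is no separate support, as it passed the main filter only through its level in air. The count of members called higher lay between 11 and 18 and of those called lower between 15 and 21 over the alternative settings, and between 14 and 17 and between 15 and 19 when 1 library was left out, while 46.8 to 64.4% of all genes were called over all of these. The lowest came from a filter of at least 5 CPM in 3 libraries, which kept 30 members and removed 8 called ones. The median log2 fold change of the members, -0.15, was -0.27 with upper quartile scaling, which lowered the median of all genes by 0.12. It was -0.30 with that filter, -0.0701 with limma voom and -0.10 with the root marker covariate. When 1 library was left out it was -0.20 to 0.0128, above 0 only without air library 3. Apart from that scaling and the fewer genes tested with the filter, the cause of these shifts was not tested. ATL70 was lost with DESeq2, voom, the replicate block, upper quartile scaling and library size alone, ATL72 with voom, the block and the covariate, and ATL40 with upper quartile scaling and the covariate.

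Samples with the same replicate number did not deviate together (correlations of -0.0368, 0.0401 and 0.0381), so the numbers were not taken as pairs. With the replicate block 15 members were higher and 17 lower, and 32 of the 34 calls were kept. Members under about 1 CPM are limited by depth, and low counts were mostly even (85.8 to 87.4% of counts of 1 to 20), but halving all counts kept all 34 calls.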
